A study of Homo sapiens with 24 samples.

Results

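The cytosolic heat shock chaperones described here are 10 genes, HSF1, HSPA8, HSPA1A, HSPA1B, HSPH1, DNAJB1, HSP90AA1, HSP90AB1, HSPB1 and BAG3, chosen by name, and all 10 were found among the 14493 genes of the count table. Their mRNA was measured by RNA-seq in SKBr3, an established HER2-amplified human breast cancer cell line, in 24 libraries that fall into 8 groups of 3 replicates. In 6 groups the cells carried a therapy-induced senescence (TIS) drug: ND-646 (an inhibitor of acetyl-CoA carboxylase) at 250 nmol/L, TVB-3166 (an inhibitor of fatty acid synthase) at 250 nmol/L, bleomycin (which breaks DNA) at 10 µmol/L, doxorubicin (a topoisomerase II poison) at 10 nmol/L, alisertib (an Aurora A kinase inhibitor) at 500 nmol/L or palbociclib (a CDK4/6 inhibitor) at 1 µmol/L. Drug was renewed on day 3 and RNA was taken on day 7, and the controls were untreated proliferating cells of day 0 and untreated cells of day 7. The labels name a refeed on day 3 for all 6 drug groups and none for untreated day-7 cells. All groups come from a single cell line, so a difference between groups is a difference within SKBr3 cells only.

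Heat shock chaperones bind unfolded or partly folded proteins in the cytosol and nucleus, and cells make more of them when proteins are damaged. HSF1 is the transcription factor that drives this response: it is held inactive in unstressed cells, forms trimers on stress, and binds heat shock elements, which are inverted repeats of GAA, in the promoters of its targets. HSP70 proteins work with J-domain partners that load clients onto them and with exchange factors that release them, HSP90 proteins mature kinases and receptors (HER2 is a well-known HSP90 client), and small heat shock proteins hold unfolded chains without using ATP.

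The promoters are shown first because HSF1 acts through them. By exact matches they separate the members with a long run of GAA repeats from those with a short one or none. A unit with any changed base was not counted, so imperfect elements are missed. The windows are the 250 bases before a gene's annotated start, from RefSeq on GRCh38.p14, written 5′ to 3′ on the gene's own strand, and capitals mark heat shock element letters. A 2-unit element was read as GAANNTTC or TTCNNGAA and a 3-unit element as either of these followed, after 2 more bases, by the next alternating unit, each searched on both strands, and a 3-unit element always contains 2-unit ones. Of 35116 such windows over all genes, 11.6% held a 2-unit element and 0.441% a 3-unit element.
HSPA8 (chr11:123062137-123062386, minus strand): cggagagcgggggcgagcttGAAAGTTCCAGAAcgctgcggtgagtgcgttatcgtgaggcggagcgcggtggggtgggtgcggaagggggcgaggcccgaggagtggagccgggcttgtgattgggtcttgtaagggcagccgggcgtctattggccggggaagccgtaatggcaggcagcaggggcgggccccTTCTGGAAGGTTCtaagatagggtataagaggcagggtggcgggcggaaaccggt
HSP90AA1 (chr14:102087045-102087294, minus strand): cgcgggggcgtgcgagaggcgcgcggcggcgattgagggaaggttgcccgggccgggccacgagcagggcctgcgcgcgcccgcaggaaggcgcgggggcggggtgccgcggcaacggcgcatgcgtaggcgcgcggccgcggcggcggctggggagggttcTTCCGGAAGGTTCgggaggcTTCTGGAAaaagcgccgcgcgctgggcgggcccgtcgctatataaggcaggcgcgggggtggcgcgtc
HSP90AB1 (chr6:44247693-44247942, plus strand): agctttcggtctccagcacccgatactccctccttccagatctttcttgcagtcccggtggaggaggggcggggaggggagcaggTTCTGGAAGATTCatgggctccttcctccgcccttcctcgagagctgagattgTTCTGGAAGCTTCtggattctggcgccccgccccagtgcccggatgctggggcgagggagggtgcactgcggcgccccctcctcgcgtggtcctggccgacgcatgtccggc
HSPA1A (chr6:31815293-31815542, plus strand): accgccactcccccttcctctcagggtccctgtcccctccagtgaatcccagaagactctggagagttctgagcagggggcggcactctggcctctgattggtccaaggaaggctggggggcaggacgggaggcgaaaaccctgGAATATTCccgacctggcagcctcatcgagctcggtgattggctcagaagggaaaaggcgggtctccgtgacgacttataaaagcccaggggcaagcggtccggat
HSPA1B (chr6:31827488-31827737, plus strand): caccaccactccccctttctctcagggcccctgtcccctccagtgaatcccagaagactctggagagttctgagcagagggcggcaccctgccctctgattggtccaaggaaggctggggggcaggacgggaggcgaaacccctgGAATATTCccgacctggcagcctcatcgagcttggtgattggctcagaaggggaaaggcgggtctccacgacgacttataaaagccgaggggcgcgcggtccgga
DNAJB1 (chr19:14518398-14518647, minus strand): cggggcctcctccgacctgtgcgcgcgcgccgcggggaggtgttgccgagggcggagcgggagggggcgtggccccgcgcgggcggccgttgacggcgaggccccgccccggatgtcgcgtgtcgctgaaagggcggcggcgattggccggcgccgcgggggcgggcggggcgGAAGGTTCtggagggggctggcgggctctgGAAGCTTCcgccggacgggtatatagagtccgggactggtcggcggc
HSPB1 (chr7:76302423-76302672, plus strand): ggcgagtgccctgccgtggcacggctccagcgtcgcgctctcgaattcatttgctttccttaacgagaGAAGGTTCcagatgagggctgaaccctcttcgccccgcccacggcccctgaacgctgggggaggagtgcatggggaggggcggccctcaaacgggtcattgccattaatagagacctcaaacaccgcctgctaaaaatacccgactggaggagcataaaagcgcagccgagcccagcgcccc
HSPA8 and HSP90AB1 each held 2 3-unit elements, and HSP90AA1 held 1 together with a separate 2-unit element. HSPA1A, HSPA1B and HSPB1 held 1 2-unit element each, and DNAJB1 held 2. The windows of HSPH1 and BAG3 and the other annotated windows of HSP90AA1, HSP90AB1 and DNAJB1 held none of these letters, and HSF1 was not matched to a window. For HSP90AB1 the printed window is the most downstream of its annotated ones. Its upstream windows, chr6:44245944-44246193 and chr6:44246851-44247100, held none. For HSP90AA1 and DNAJB1 an annotated window without these letters also lies upstream of the printed one. Which start the SKBr3 cells use was not tested. A match describes the sequence only.

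Total counts per library ranged from 29405121 to 44316330. The 6 epithelial and HER2 markers (ERBB2, GRB7, EPCAM, KRT8, KRT18 and KRT19) were in the table, with ERBB2 between 4938 and 8393 CPM (counts scaled to the library's own total), and of 12 markers of fibroblasts, endothelium, leukocytes and basal epithelium only COL1A1, VWF and CDH5 were among the genes analysed here. Their summed level was 35.2 to 59.8 CPM in bleomycin, doxorubicin and palbociclib libraries and 14.8 to 21.9 CPM in the others, and its part in the results was not tested. Libraries of 1 group always differed by more than counting noise. The first replicates of ND-646 and of untreated day-0 cells stood apart from their own groups: the chi-square per degree of freedom between the first ND-646 library and the others was 146 and 159 against 13.4 between the others, and for day-0 cells 171 and 172 against 18.3. Where leaving out one of these 2 libraries changes the call of a member, this is said beside the result. Pairs of single drugs other than TVB-3166 against ND-646 were not refit with a library left out. Levels of the members below are CPM scaled by the TMM method, which sets libraries on a common scale.

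HSPA8 and the HSP90 genes were the most abundant members, and HSF1 and BAG3 the least. Per kilobase of transcript, which allows genes to be compared, day-0 cells held 1466 CPM per kb of HSPA8, the constitutive HSP70, 919 of HSP90AA1, the stress-responsive HSP90, 800.3 of HSP90AB1, the constitutive HSP90, and 500.2 of HSPB1, the small heat shock protein HSP27. HSPA1A and HSPA1B, which encode nearly the same stress-inducible HSP70, stood at 109 and 96.0 CPM per kb, DNAJB1, their J-domain partner, at 81.5, HSPH1, the HSP110 exchange factor, at 50.9, HSF1 at 41.6 and BAG3, an exchange factor that routes clients to autophagy, at 30.3. The summed level of the 10 members was 9839 ± 864 CPM (SD, n = 3) in day-0 cells, 7841 ± 376 in untreated day-7 cells and lowest with TVB-3166, at 6026 ± 207. This sum is mostly HSPA8, HSP90AA1 and HSP90AB1.

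**Figure D1:**
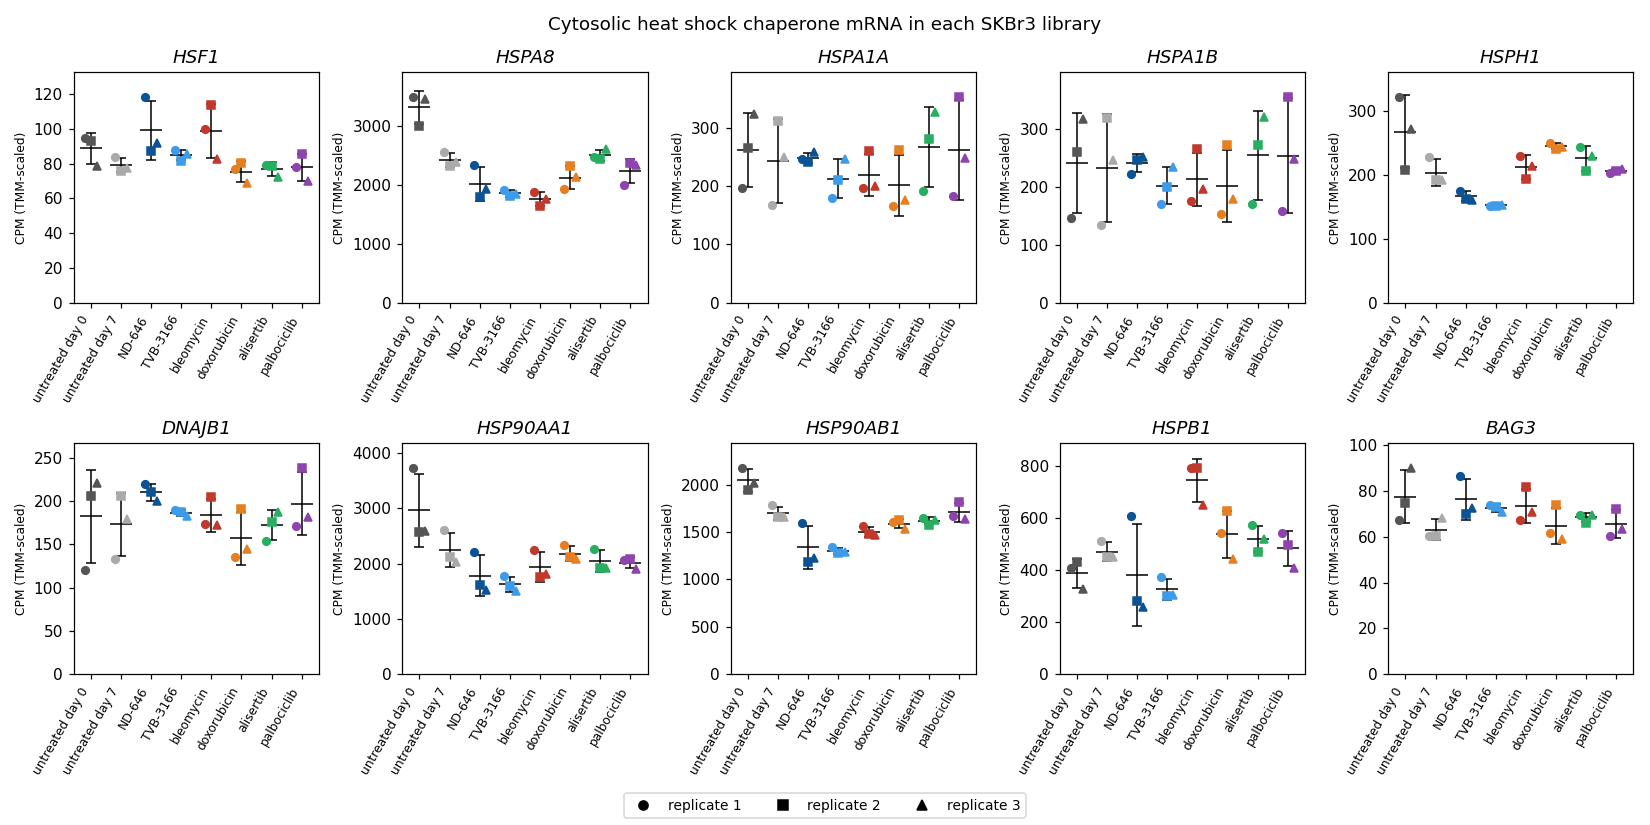
Levels of the 10 genes in each library (vertical axis, TMM-scaled CPM from 0) in the 8 groups (horizontal axis), with the mean and SD of 3 libraries as black bars and the replicate number as the symbol. HSPA8 sits highest in the 3 day-0 libraries, HSPB1 highest in the 3 bleomycin libraries, and the ND-646 library with 610 CPM of HSPB1 stands above the other two.

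HSPA8 fell in all 6 TIS groups against day-0 cells. HSPA8 (GRCh37 chr11:122928197-122933938, minus strand, 9 exons) is the HSC70 that folds new proteins in unstressed cells, and its snoRNA-bearing introns and an antisense lncRNA overlap it. It measured 3502, 2996 and 3462 CPM in the day-0 libraries and 2565, 2332 and 2400 in untreated day-7 cells. With drug it was 2338, 1797 and 1926 CPM under ND-646, 1923, 1808 and 1855 under TVB-3166, 1884, 1638 and 1764 under bleomycin, 1928, 2326 and 2129 under doxorubicin, 2473, 2440 and 2612 under alisertib and 2007, 2372 and 2341 under palbociclib. No drug-treated library reached the lowest day-0 library. The log2 fold change was -0.91 ± 0.13 (SE) for bleomycin, -0.83 ± 0.12 for TVB-3166, -0.73 ± 0.20 for ND-646, -0.63 ± 0.13 for doxorubicin, -0.57 ± 0.12 for palbociclib and -0.41 ± 0.11 for alisertib, and adjusted p-values over all genes (edgeR's quasi-likelihood test, Benjamini-Hochberg) ran from 0.00015 (TVB-3166) to 0.018 (ND-646). All 6 comparisons share the same 3 day-0 libraries. Without the first day-0 library HSPA8 remained called in all 6, with log2 fold changes from -0.88 to -0.35, and without the first ND-646 library it was at -0.84 with ND-646 (adjusted p = 0.00076). The ND-646 call was lost without replicate 2 or 3 of ND-646 or replicate 3 of day-0 cells (adjusted p up to 0.082). The alisertib call was lost with scaling by library totals and without replicate 1 or 2 of alisertib (adjusted p up to 0.067). In bulk RNA, fewer cells that make an mRNA and less of it per cell cannot be told apart.

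Both HSP90 genes followed the same direction. HSP90AA1 (chr14:102547079-102606036, minus strand, overlapped by WDR20 on the other strand) measured 3729, 2578 and 2592 CPM in day-0 cells, and the lowest values were with TVB-3166, at 1778, 1594 and 1509, and with ND-646, at 2201, 1611 and 1526. It fell in all 6 TIS groups, from -0.86 ± 0.16 on the log2 scale with TVB-3166 (adjusted p = 0.00084) through -0.75 ± 0.24 with ND-646, -0.61 ± 0.18 with bleomycin, -0.56 ± 0.15 with palbociclib and -0.54 ± 0.15 with alisertib to -0.44 ± 0.16 with doxorubicin (adjusted p = 0.045). Untreated day-7 cells held 2600, 2111 and 2020 CPM of HSP90AA1, at -0.39 ± 0.16 against day-0 cells (adjusted p = 0.18 by edgeR). The first day-0 library was far above the other two, and without it the call was lost for ND-646 and doxorubicin and held for the other 4 drugs, at -0.67 for TVB-3166. Over 14 other fits the HSP90AA1 call was lost in 5 for ND-646, 6 for doxorubicin, 2 for bleomycin, 2 for alisertib and 0 for TVB-3166 and palbociclib, and without the first ND-646 library it was at -0.92 with ND-646. HSP90AB1 (chr6:44213903-44221625, plus strand) was tighter among the controls, at 2176, 1938 and 2020 CPM in day-0 cells, against 1599, 1186 and 1227 with ND-646 and 1336, 1281 and 1284 with TVB-3166. HSP90AB1 fell in 5 groups, by -0.65 ± 0.11 (TVB-3166), -0.63 ± 0.19 (ND-646), -0.44 ± 0.12 (bleomycin), -0.35 ± 0.11 (doxorubicin) and -0.34 ± 0.10 (alisertib), and was at -0.26 ± 0.11 with palbociclib, where the adjusted p was 0.066. Untreated day-7 cells held 1779, 1653 and 1662 CPM of HSP90AB1, at -0.26 ± 0.10 against day-0 cells (adjusted p = 0.16 by edgeR). The HSP90AB1 call was lost in 5 of 14 other fits for ND-646, each of them without 1 library (replicate 2 or 3 of ND-646 or any of day-0 cells), and it held without the first ND-646 library, at -0.77. It was lost in 4 for doxorubicin and 4 for alisertib, among them scaling by library totals and, for alisertib, the fits without any 1 alisertib library, in 1 for bleomycin and in 0 for TVB-3166.

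HSPH1 separated the drugs. HSPH1 (chr13:31709110-31736525, minus strand, 18 exons), the HSP110 that recharges HSP70 with ATP, measured 322, 208 and 271 CPM in day-0 cells, 175, 162 and 161 with ND-646 and 152, 152 and 153 with TVB-3166. Doxorubicin libraries held 250.2, 241 and 243 CPM, alisertib 243, 205 and 229, bleomycin 229.9, 193 and 213 and palbociclib 202, 206 and 208. The libraries of both lipogenesis inhibitors lay below every other library. Against day-0 cells HSPH1 fell with TVB-3166 (log2 fold change -0.81 ± 0.14, adjusted p = 0.00053), with ND-646 (-0.70 ± 0.18, adjusted p = 0.014) and with palbociclib (-0.38 ± 0.14, adjusted p = 0.038), and was at -0.33 ± 0.15 with bleomycin, -0.24 ± 0.14 with alisertib and -0.11 ± 0.14 with doxorubicin, none of which passed. Untreated day-7 cells, at 227, 191 and 191 CPM, were also at -0.38 ± 0.14 against day-0 cells, where it did not pass (adjusted p = 0.16 by edgeR). Without the first day-0 library the ND-646 and palbociclib calls were lost and the TVB-3166 call was kept, at -0.65. Without the third day-0 library the same 2 HSPH1 calls were lost, the palbociclib call was lost in 6 of 14 other fits in all, and without the first ND-646 library HSPH1 was at -0.73 with ND-646 (adjusted p = 0.0046).

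HSPB1 was the member that rose. HSPB1 (chr7:75931990-75933612, plus strand, 3 exons) encodes HSP27, which binds unfolded chains and actin. It measured 409, 431 and 326 CPM in day-0 cells, 513, 451 and 451 in untreated day-7 cells and 792, 794 and 651 with bleomycin. Every bleomycin library was above every library of the other groups. The log2 fold change against day-0 cells was 0.94 ± 0.14 for bleomycin (adjusted p = 0.00062), 0.48 ± 0.15 for doxorubicin (adjusted p = 0.021) and 0.42 ± 0.12 for alisertib (adjusted p = 0.019). The bleomycin call held in all 14 other fits, while the doxorubicin call was lost in 4 and the alisertib call in 5, among them the fits without the third day-0 library (adjusted p = 0.072 and 0.051). Without the first day-0 library HSPB1 was at 0.97 with bleomycin, 0.51 with doxorubicin and 0.47 with alisertib, all called. It was 0.32 ± 0.14 with palbociclib (adjusted p = 0.073, and 0.048 without the first day-0 library), -0.04 ± 0.31 with ND-646 and -0.25 ± 0.13 with TVB-3166. The ND-646 libraries held 610, 280 and 257 CPM, and without the first of them HSPB1 fell with ND-646, at -0.54 (adjusted p = 0.0086).

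The other 5 members did not pass the test in any TIS group against day-0 cells when all libraries were used. HSF1 (chr8:145515273-145538383, plus strand, overlapped by DGAT1 on the other strand) stood between 68.8 and 118 CPM over all 24 libraries, and its log2 fold changes ran from -0.22 ± 0.10 with doxorubicin to 0.16 ± 0.14 with bleomycin. DNAJB1 (chr19:14625581-14671203, minus strand, overlapped by TECR) stood between 121 and 239 CPM, with log2 fold changes from -0.21 ± 0.21 with doxorubicin to 0.19 ± 0.22 with ND-646. BAG3 (chr10:121410892-121437331, plus strand) stood between 59.2 and 90.1 CPM, with -0.25 ± 0.13 with doxorubicin and -0.03 ± 0.16 with ND-646 as its extremes. HSPA1A (chr6:31783320-31785723, plus strand) ranged from 166 to 353 CPM and HSPA1B (chr6:31795515-31798031, plus strand) from 134 to 356. HSPA1B was at -0.02 ± 0.26 on the log2 scale with ND-646 (95% interval -0.60 to 0.56) and at 0.07 ± 0.29 with palbociclib (-0.58 to 0.71). Without the first day-0 library HSPA1A and HSPA1B passed with TVB-3166, at -0.47 and -0.52, and with doxorubicin, at -0.55 and -0.51, and HSPA1A passed with bleomycin, at -0.43. Replicate 1 was low for both genes in nearly all groups, as given below, so leaving it out of the controls alone raises their level. With the replicate number as a block HSPA1A was at -0.28 with TVB-3166 (adjusted p = 0.044), -0.37 with doxorubicin (adjusted p = 0.076) and -0.23 with bleomycin (adjusted p = 0.21), and HSPA1B was at -0.19 with TVB-3166 (adjusted p = 0.23) and -0.22 with doxorubicin (adjusted p = 0.31). Without that day-0 library DNAJB1 also passed with doxorubicin (-0.44) and alisertib (-0.30), and BAG3 with doxorubicin (-0.34) and palbociclib (-0.33). Without the third day-0 library HSF1 passed with doxorubicin (-0.31) and alisertib (-0.29). HSPA1A and HSPA1B share 1566 identical windows of 150 bases, 69.6% of those in HSPA1A and 66.1% of those in HSPA1B, so reads from them cannot be fully told apart and their separate values are uncertain.

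The counts of called members are read against all genes. Against day-0 cells 4 of 10 members fell and 0 rose with ND-646, where 37.9% of all genes tested were called in either direction. The counts were 4 fell and 0 rose with TVB-3166 (55.1% of genes), 3 fell and 1 rose with bleomycin (49.4%), 3 and 1 with doxorubicin (48.4%), 3 and 1 with alisertib (37.3%) and 3 and 0 with palbociclib (53.2%). In the lower direction alone 18.8% of genes fell with ND-646, 27.7% with TVB-3166, 25.3% with bleomycin, 24.8% with doxorubicin, 19.6% with alisertib and 27.2% with palbociclib. The share of members called was near or under the background in either direction and the share that fell was above the background in that direction, and with 10 chosen members neither is read as a result about them. By a rule of at least 2-fold and an unadjusted p under 0.05, 0 members were called in any comparison, where all genes gave 20.7% for ND-646, 17.6% for TVB-3166, 18.8% for bleomycin, 12.9% for doxorubicin, 7.90% for alisertib, 16.7% for palbociclib and 1.99% for untreated day-7 cells against day-0 cells. Against untreated day-7 cells that rule gave 17.4% for ND-646, 13.4% for TVB-3166, 14.1% for bleomycin, 8.77% for doxorubicin, 3.27% for alisertib and 11.2% for palbociclib, and it gave 7.14% for both lipogenesis inhibitors against the other drugs and 3.52% for TVB-3166 against ND-646. Untreated day-7 cells had 0 called members against day-0 cells by edgeR (0.587% of genes), with 6 at an unadjusted p under 0.05 and 1 called by DESeq2, and HSPA8 was at -0.44 ± 0.11 there (adjusted p = 0.081).

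**Figure D2:**
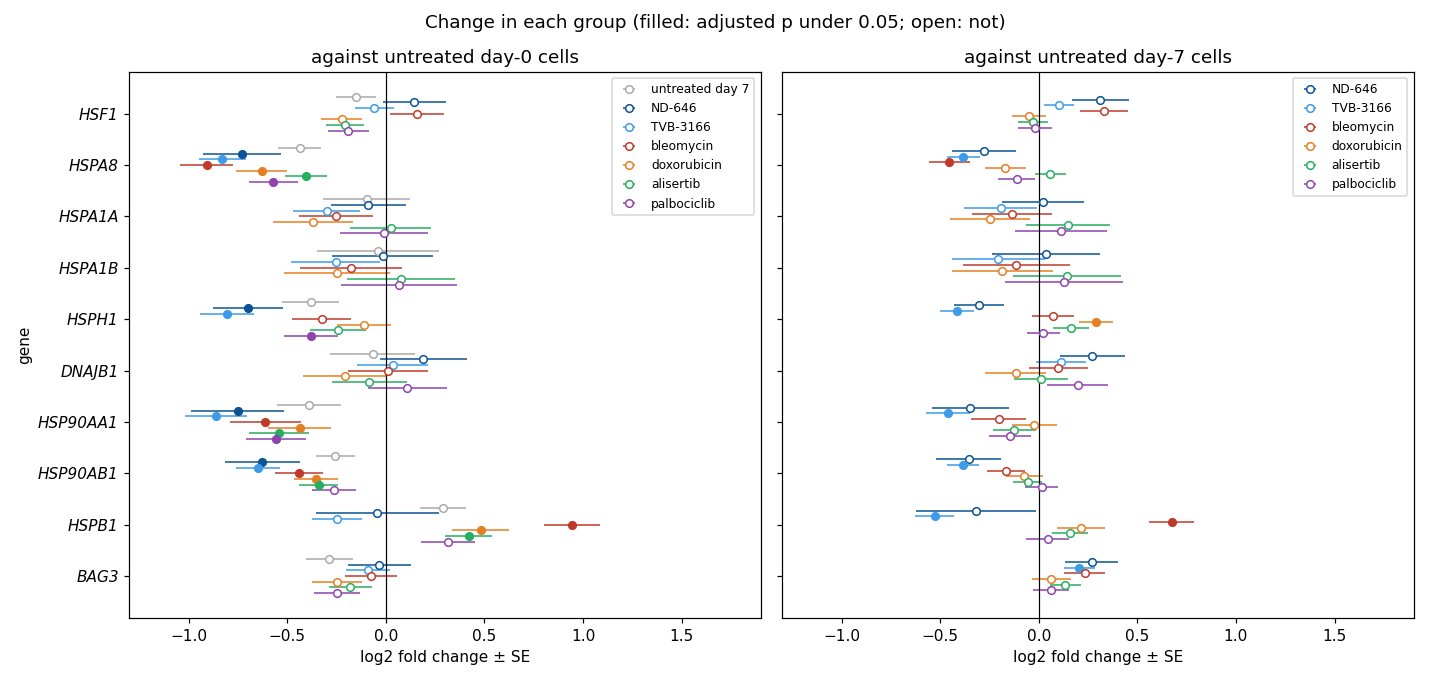
Log2 fold change with its SE (horizontal axis) of each gene (vertical axis) against untreated day-0 cells on the left and untreated day-7 cells on the right, one color per group, with filled points where the adjusted p was under 0.05. HSPA8, HSP90AA1 and HSP90AB1 lie left of 0 in every drug group on the left, and HSPB1 with bleomycin lies farthest right, at 0.94.

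Untreated day-7 cells are the control of the same culture age. Their labels name no refeed, so an effect of the drug and one of the day-3 refeed cannot be told apart here. With TVB-3166 5 members fell and 1 rose, against 51.5% of all genes called. HSPB1 fell by 0.53 ± 0.10 on the log2 scale, from 513, 451 and 451 CPM to 373, 302 and 304, and HSP90AA1 (-0.46 ± 0.11), HSPH1 (-0.41 ± 0.09), HSPA8 (-0.38 ± 0.08) and HSP90AB1 (-0.38 ± 0.08) fell with adjusted p-values from 0.0012 to 0.0055. BAG3 rose by 0.21 ± 0.08, from 60.5, 60.3 and 68.3 CPM to 74.0, 72.9 and 70.8 (adjusted p = 0.049), a call lost in 10 of 14 other fits. With bleomycin HSPA8 fell (-0.45 ± 0.10, adjusted p = 0.0067) and HSPB1 rose (0.67 ± 0.11, adjusted p = 0.0015), where 45.6% of genes were called. HSF1 was at 0.33 ± 0.12 there (adjusted p = 0.052), and with the replicate number as a block it passed, at 0.32 (adjusted p = 0.047). With doxorubicin HSPH1 alone rose (0.29 ± 0.09, adjusted p = 0.018), where 43.4% of genes were called. By edgeR 0 members were called with alisertib (19.0% of genes) and 0 with palbociclib (44.8%), and in each 0 had an unadjusted p under 0.05 and DESeq2 called 0.

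ND-646 against untreated day-7 cells turned on 1 library and on the choice of fit. With all 3 ND-646 libraries and only the groups compared, edgeR and DESeq2 both called 0 members (34.2% of genes by edgeR), and 1 member, HSPH1, had an unadjusted p under 0.05. With the same ND-646 libraries edgeR called 4 members when scaled by library totals and 4 with all 24 libraries in 1 fit. It called 6 when the replicate block was added to that fit of 24. Without the first ND-646 library 5 members fell: HSPB1 (-0.82, adjusted p = 5e-05), HSP90AA1 (-0.53), HSP90AB1 (-0.50), HSPA8 (-0.40) and HSPH1 (-0.34). That library had the highest HSPB1, HSP90AA1, HSP90AB1, HSPA8, HSPH1 and HSF1 of its group. A cause of its distance from the others was not tested.

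The lipogenesis inhibitors were set against the 4 other TIS drugs in 1 fit of the 18 drug-treated libraries. This compares the mean of the 2 inhibitors with the mean of the other drugs. Its p-values rest on the spread between libraries of the same drug. They do not measure variation between drugs of a kind. HSPH1, HSPB1, HSP90AB1 and HSP90AA1 were lower with the lipogenesis inhibitors and 0 members higher, where 50.1% of genes were called. HSPH1 was at -0.47 ± 0.05 on the log2 scale (adjusted p = 1.5e-06), 1.39-fold, with no overlap between the libraries. HSPB1 was at -0.67 ± 0.15 (adjusted p = 0.0017), HSP90AB1 at -0.27 ± 0.07 (adjusted p = 0.0030) and HSP90AA1 at -0.25 ± 0.09 (adjusted p = 0.023), and for these genes some libraries overlapped. Between single drugs, HSPH1 was lower with ND-646 and with TVB-3166 than with each of the other 4, with adjusted p-values from 2.0e-05 to 0.0091 by edgeR, and so passed in 8 of 8 such pairs. The other 3 genes passed in fewer: HSPB1 was lower in 3 pairs (both inhibitors against bleomycin, and TVB-3166 against doxorubicin), HSP90AB1 in 2 (both against palbociclib) and HSP90AA1 in 1 (TVB-3166 against doxorubicin). In these 8 pairs 26.2% to 42.6% of all genes were called. The counts of pairs for HSPB1, HSP90AB1 and HSP90AA1 are therefore not read as a result about them. In the other direction HSF1 was higher with ND-646 than with doxorubicin, alisertib and palbociclib, by 0.36 to 0.40 on the log2 scale (adjusted p = 0.019 to 0.035), and DNAJB1 higher with ND-646 than with doxorubicin (0.42 ± 0.14, adjusted p = 0.020). The ND-646 libraries held 118.5, 87.0 and 91.9 CPM of HSF1, and the first of them stands apart from its group. These pairs were not refit without it, so its part in the HSF1 and DNAJB1 calls was not tested. Given the share of genes called in these pairs, the HSF1 and DNAJB1 calls are not read as a result about them either. In the contrast with the 4 other drugs HSPA8 was at -0.14 ± 0.07 (adjusted p = 0.13). With all 18 libraries the fall of HSPA8 against day-0 cells was thus not shown to differ between the 2 sets of drugs. When the first ND-646 library was left out, 5 members were called in this contrast rather than 4. Whether HSPA8 was the added member is not stated here, so its lack of a call holds for the full fit only. Between single drugs HSPA8 was lower with TVB-3166 than with alisertib (-0.42 ± 0.12, adjusted p = 0.015), with bleomycin than with alisertib and with bleomycin than with palbociclib (adjusted p = 0.0037 and 0.038). In these pairs 26.2%, 34.9% and 30% of all genes were called. TVB-3166 and ND-646 differed in 0 members by edgeR, where 7.68% of genes were called, 0 members had an unadjusted p under 0.05 and DESeq2 called 0. The 95% intervals of that difference ran from -0.37 to 0.13 for HSPA8 and from -0.31 to 0.05 for HSPH1. Other members were less exact: ND-646 was 0.24 ± 0.24 above TVB-3166 for HSPB1 and 0.26 ± 0.27 above it for HSPA1B. For such genes the lack of a call is not read as likeness.

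**Figure D3:**
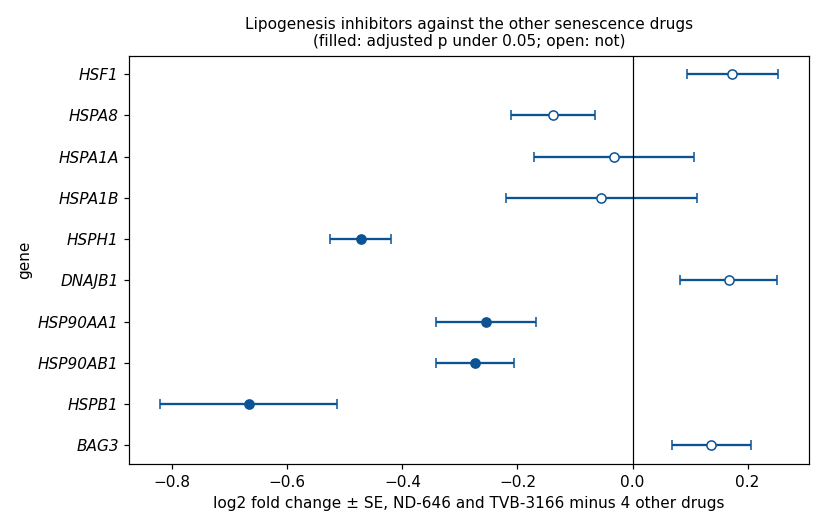
Log2 fold change with its SE (horizontal axis) of each gene (vertical axis) between the 6 ND-646 and TVB-3166 libraries and the 12 libraries of the other drugs, filled where the adjusted p was under 0.05. HSPB1 lies farthest left, at -0.67, and HSPH1 has the smallest error, at -0.47 ± 0.05.

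In the order of the groups by level, most neighbours did not differ beyond their spread. For HSPA8 the order of mean CPM was day-0 cells (3320), alisertib (2508), untreated day-7 cells (2433), palbociclib (2240), doxorubicin (2128), ND-646 (2020), TVB-3166 (1862) and bleomycin (1762), and of these neighbours only day-0 cells and alisertib differed (adjusted p = 0.014). For HSPB1 bleomycin (746 CPM) led doxorubicin (538), alisertib (520.5), palbociclib (484), untreated day-7 cells (472), day-0 cells (389), ND-646 (382) and TVB-3166 (326), and no neighbours differed. No neighbours differed in the order of the other 8 members either.

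Several members varied together from library to library. Over the 24 libraries, which share 8 groups and their replicate numbers, log2 CPM of HSPA1A and HSPA1B had a Pearson r of 0.97, HSP90AA1 and HSP90AB1 of 0.90, HSPA8 and HSP90AB1 of 0.85, HSPH1 and HSP90AA1 of 0.83 and HSPA1B and DNAJB1 of 0.81. HSPA1A and HSPA1B share reads, as described above. Over the 8 group means and 14068 genes, the genes most like HSPH1 were POLR3A (r = 0.96), POM121 and CEP250, those most like HSPB1 were CRACD (r = 0.96), TP63 and PDK4, those most like DNAJB1 were INF2 (r = 0.96), BOK and GIPC1, and those most like BAG3 were LIN37 (r = 0.96), MTMR14 and KLHL26.

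The inducible HSP70 genes also varied with the replicate number. HSPA1B was lowest in replicate 1 in 8 of 8 groups and HSPA1A in 7 of 8, with a median log2 distance of replicate 1 from the other two of -0.66 for HSPA1B and -0.47 for HSPA1A. In untreated day-7 cells, for example, HSPA1B measured 134, 319 and 247 CPM. DNAJB1 was lowest in replicate 1 in 5 of 8 groups, and HSP90AA1 went the other way, highest in replicate 1 in 7 of 8 groups, with a median log2 distance of 0.28. The sources used here do not say if libraries of the same number were prepared together.

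**Figure D4:**
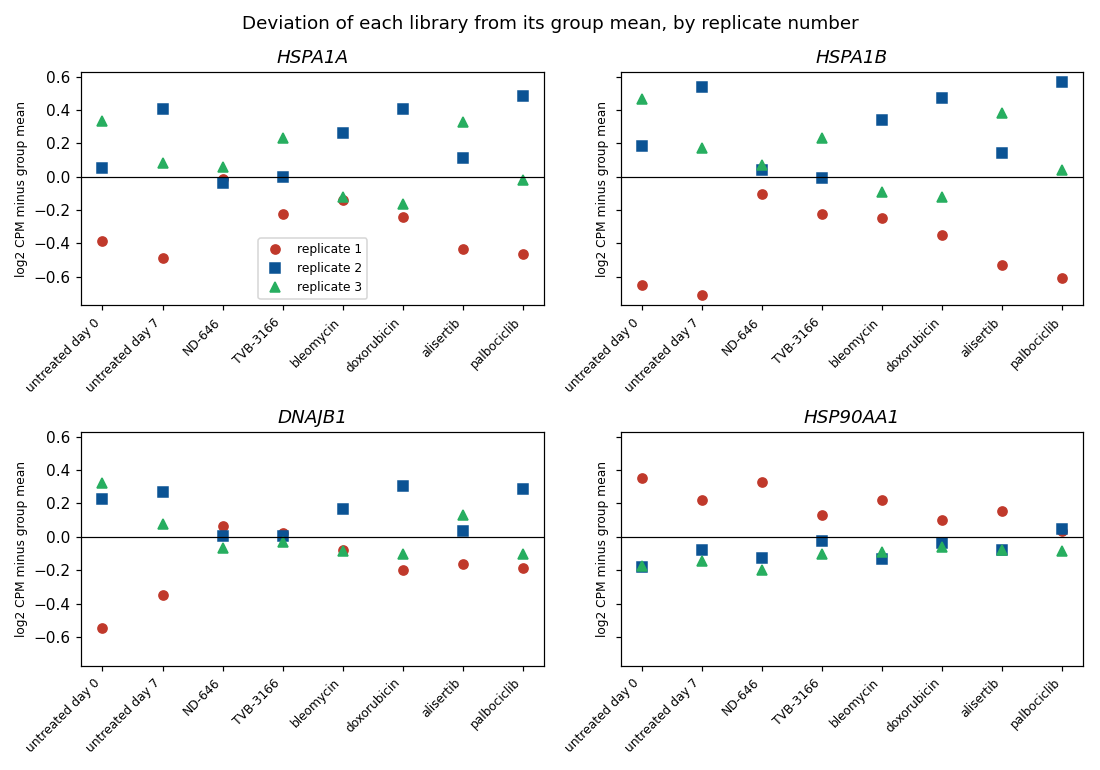
Log2 CPM of each library minus its group mean (vertical axis) for 4 genes in the 8 groups (horizontal axis), with the replicate number as color and symbol. Replicate 1 of HSPA1B lies lowest in all 8 groups, and replicate 1 of HSP90AA1 lies highest in 7.

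Beyond the 10 members, 83 other chaperones and co-chaperones in 8 lists were counted, of which 79 or 80 were tested per comparison. Against day-0 cells 28 fell and 4 rose with ND-646, 45 and 5 with TVB-3166, 37 and 9 with bleomycin, 44 and 8 with doxorubicin, 41 and 3 with alisertib and 48 and 6 with palbociclib, where 18.8%, 27.7%, 25.3%, 24.8%, 19.6% and 27.2% of all genes fell. Of the 17 HSP90 co-chaperones, which carry clients to HSP90 or tune its ATP cycle, 10, 13, 10, 13, 12 and 13 fell in the same order of drugs. In the CCT/TRiC ring, which folds actin and tubulin, and prefoldin, which feeds it, 7, 11, 9, 13, 11 and 12 of 14 fell and 0 rose. The median log2 fold change of CCT/TRiC and prefoldin was -0.72 with TVB-3166, against -0.01 over all genes. Without the first day-0 library 17 of these chaperones fell with ND-646 and 35 to 48 with the other drugs, and without the first ND-646 library 47 fell with ND-646, fits that were added after seeing the data. In CCT/TRiC and prefoldin the ND-646 count was then 4 and 12. Without the first day-0 library 14.2% of all genes fell with ND-646 and 18.6% to 27.3% with the other drugs. Without the first ND-646 library 27.8% of all genes fell with ND-646. In untreated day-7 cells against day-0 cells 1 gene of all lists, HSPB7, rose and 0 fell, where 0.587% of genes were called. The median log2 fold change there was -0.22 for HSP90 co-chaperones and -0.17 for CCT/TRiC and prefoldin. Against untreated day-7 cells 17 fell and 6 rose with ND-646, 46 and 8 with TVB-3166 and 26 and 13 with bleomycin. The counts were 31 and 11 with doxorubicin, 18 and 4 with alisertib and 33 and 7 with palbociclib. In that order 34.2%, 51.5%, 45.6%, 43.4%, 19.0% and 44.8% of all genes were called in either direction.

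FKBP5, an HSP90 co-chaperone of steroid receptors, fell from 41.4 ± 3.1 CPM (SD, n = 3) in day-0 cells to 8.11 ± 2.99 with ND-646 (log2 fold change -2.36, adjusted p = 0.00033), to 10.5 ± 0.7 with TVB-3166 (-1.98), to 16.1 ± 4.3 with bleomycin and to 15.2 ± 2.0 with palbociclib. HSPB7, a small heat shock protein, fell from 49.4 ± 5.9 CPM to 15.7 ± 1.8 with ND-646, 19.2 ± 5.2 with doxorubicin and 13.5 ± 2.1 with palbociclib. DNAJC9, a J-domain histone chaperone, fell from 106 ± 4 CPM to 34.7 ± 5.2 with ND-646 and 33.2 ± 8.1 with bleomycin. Other drugs are not listed for FKBP5, HSPB7 and DNAJC9, though falls were seen there too. In the fits without the first day-0 library DNAJC9 fell with TVB-3166 (-1.55), palbociclib (-1.38), doxorubicin (-1.01) and alisertib (-0.83). FKBP5 fell with doxorubicin (-1.05) and alisertib (-0.85), and HSPB7 with TVB-3166 (-0.79) and alisertib (-0.40). HSPB7 with bleomycin did not pass (-0.21, adjusted p = 0.41 by edgeR). HSF4, another heat shock factor, rose with TVB-3166 from 0.83 ± 0.64 to 6.85 ± 3.07 CPM (log2 fold change 3.07, adjusted p = 0.0006), at a low level in all groups. HSF4 also rose with palbociclib (2.69, adjusted p = 0.0016), alisertib (2.54, adjusted p = 0.0075) and doxorubicin (1.76, adjusted p = 0.018), and was at 1.95 with ND-646 (adjusted p = 0.061; 0.0066 without the first ND-646 library). HSPA6, a strictly inducible HSP70, rose with bleomycin from 0.202 ± 0.031 to 1.07 ± 0.29 CPM (adjusted p = 0.00085), and with doxorubicin to 0.583 ± 0.159 CPM (log2 fold change 1.54, adjusted p = 0.0082). These levels are near the floor of the counts. With the other drugs HSPA6 did not pass the filter on low counts in the fits against day-0 cells and was not tested. The filter thus kept it only where it was higher, and these rises are not read as support.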

How the data were processed

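RNA-seq counts of 24 SKBr3 libraries, 8 groups of 3 replicates, were analysed. Groups and replicate numbers were taken from the sample labels, which spell palbociclib as Palboclib. An mRNA kit is named in the labels but a stranded total RNA kit in the study's methods.

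Reads were mapped by the authors with HISAT2 on GRCh37 and passed to StringTie, and what they deposited is a table of raw integer counts, 1 row a gene. The counting settings, the strand option among them, are not given in the sources used here, so reads of overlapping genes on opposite strands may not be separated. The table's lowest count is 1, so a gene with no reads in any 1 library is not in it. Total counts ranged from 29405121 to 44316330. The study's methods speak of independent experiments for work on cells in general but not of how these replicate libraries arose, so p-values measure the spread between these samples, which may be technical.

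After filterByExpr and TMM scaling, the quasi-likelihood F test of edgeR 4.0.16 (R 4.3.3) was run on the counts, 2-sided, on the 2 groups compared, or on all 6 drug groups for contrasts among drugs, with no term for the replicate number. Genes tested per fit numbered 13604 to 14052, and a gene was called at a Benjamini-Hochberg adjusted p under 0.05 over all of them. All 10 members passed the filter on low counts in every fit. Levels are TMM-scaled CPM with the SD of 3 libraries, CPM per kb divides by the length of the annotated transcript, and for log2 CPM a prior count of 2 was added. DESeq2 1.42.0 was an alternative. The script was tested on simulated counts. With 3 libraries against 3 an exact permutation test cannot go below 0.1, so no such test is given.

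The numbers were taken to pair libraries where all 3 correlations of same-numbered deviations from the group means exceeded 0.1, which held for bleomycin against untreated day-7 cells (0.107 to 0.142), alisertib against untreated day-7 cells (0.105 to 0.218) and TVB-3166 against ND-646 (0.213 to 0.380), a hint from the data and not from the design. All 10 members are named. From the wider lists, at most 3 genes a comparison are named, those called with the largest absolute log2 fold change, and for BAG3, DNAJB1, HSPH1 and HSPB1 the 3 genes with the highest correlation over group means. The members, lists and tests were chosen with earlier results of these data known. Positions on GRCh37 are from GENCODE, and promoter windows from RefSeq on GRCh38.p14 were used for sequence only.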

Additional observations from a re-analysis of the deposited data

Results flagged for a closer look

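The contrast of ND-646 and TVB-3166 with the 4 other TIS drugs tests a difference between the means of these 2 sets of drugs. In edgeR 4 members passed it at an adjusted p under 0.05. Its error is the spread between libraries of the same drug, so it does not speak for other drugs of either kind. HSPH1 was at -0.47 on the log2 scale and HSPB1 at -0.67, and both stayed called in all 26 other fits, as did HSP90AB1 at -0.27. HSP90AA1 was at -0.25, and its call was lost when replicate 2 or 3 of ND-646 or of TVB-3166 was left out. Without the first ND-646 library, which stands apart, the values were -0.50 for HSPH1, -0.93 for HSPB1, -0.35 for HSP90AB1 and -0.35 for HSP90AA1. HSPB1 in that library was 610 CPM against 280 and 257 in the others of its group, and the part of that library in the contrast is given by these values.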

How the results depend on the processing

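Of the 36 calls of a member, 18 were kept in every other fit, the 2-fold rule aside, among them HSPA8 with TVB-3166, bleomycin, doxorubicin and palbociclib and HSPB1 with bleomycin. In the 8 settings that leave all libraries in, 1118 of 1200 values kept their direction and their side of the threshold, 16 lost a call, 45 gained one and 21 changed sign, and of 1020 values with 1 library left out 843 kept both, 55 lost a call, 35 gained one and 87 changed sign. No member that was called changed sign. The cause of these changes was not tested. Counting error is small for the members at these totals.

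A fold change of at least 2 with a raw p under 0.05, the rule of the study, gave 0 called members in every comparison. Scaling by library totals moved the median of all genes by -0.22 log2 units for ND-646 against untreated day-7 cells and by -0.15 for both lipogenesis inhibitors against the others, and gave 2 called members for doxorubicin and 2 for alisertib against day-0 cells, and 4 for ND-646 and 4 for bleomycin against untreated day-7 cells. DESeq2 called 5 with palbociclib and 1 in untreated day-7 cells against day-0 cells. All 24 libraries in 1 fit gave 1 in untreated day-7 cells against day-0 cells, and against untreated day-7 cells 4 for ND-646 and 0 for doxorubicin. The replicate block gave 3 in untreated day-7 cells against day-0 cells and 1 for palbociclib against untreated day-7 cells, and in the 3 comparisons where the numbers pair the libraries it gave no count that moved by over 1.5 times, though HSF1 with bleomycin against untreated day-7 cells became called (0.32, adjusted p = 0.047). All 24 libraries in 1 fit with the replicate block, chosen after seeing the data, gave 3 in untreated day-7 cells against day-0 cells and 6 for ND-646 against untreated day-7 cells.

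With 1 library left out, the members called against day-0 cells ranged from 0 to 5 for ND-646, 4 to 6 for TVB-3166, 2 to 5 for bleomycin, 1 to 7 for doxorubicin, 1 to 5 for alisertib and 2 to 4 for palbociclib, and against untreated day-7 cells from 0 to 5 for ND-646, 5 to 7 for TVB-3166, 2 to 3 for bleomycin and 0 to 2 for doxorubicin, and from 3 to 6 for both lipogenesis inhibitors against the others. The lowest count for ND-646 against day-0 cells, 0, was without the third day-0 library, and the highest for doxorubicin, 7, without the first.

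The sign changes, all of uncalled values, are log2 fold changes, with the reference day in parentheses. With library totals only, DNAJB1 was at -0.023 in bleomycin (day 0), 0.035 in alisertib (day 0), 0.011 in untreated day-7 (day 0), -0.033 in bleomycin (day 7). HSPH1 was at 0.0026 in doxorubicin (day 0), -0.055 in bleomycin (day 7), 0.019 in TVB-3166 against ND-646. HSPA1A was at 0.11 in palbociclib (day 0), -0.20 in ND-646 (day 7). HSPA1B was at 0.037 in untreated day-7 (day 0), -0.18 in ND-646 (day 7). BAG3 was at -0.019 in both lipogenesis inhibitors against the others, 0.076 in TVB-3166 against ND-646. HSPA8 was at 0.034 in TVB-3166 against ND-646. HSP90AA1 was at 0.029 in TVB-3166 against ND-646. HSP90AB1 was at 0.11 in TVB-3166 against ND-646. With RLE size factors HSPA1A was at 0.0019 in palbociclib (day 0), with HSPA1A and HSPA1B summed HSPA1A was at 0.029 in palbociclib (day 0), with all 24 libraries in 1 fit DNAJB1 was at -0.0051 in alisertib (day 7), with the replicate block HSPA1B was at 0.052 in ND-646 (day 0), and with both of the last 2 HSPA1B was at 0.065 in ND-646 (day 0). With 1 library left out, HSPA1A ran from -0.26 to 0.086 in ND-646 (day 0), from -0.15 to 0.21 in alisertib (day 0), from -0.28 to 0.19 in palbociclib (day 0), from -0.32 to 0.095 in untreated day-7 (day 0), from -0.19 to 0.24 in ND-646 (day 7), from -0.40 to 0.023 in TVB-3166 (day 7), from -0.34 to 0.077 in bleomycin (day 7), from -0.066 to 0.36 in alisertib (day 7), from -0.15 to 0.33 in palbociclib (day 7), from -0.094 to 0.036 in both lipogenesis inhibitors against the others. HSPA1B ran from -0.28 to 0.22 in ND-646 (day 0), from -0.44 to 0.070 in bleomycin (day 0), from -0.17 to 0.32 in alisertib (day 0), from -0.25 to 0.31 in palbociclib (day 0), from -0.34 to 0.22 in untreated day-7 (day 0), from -0.24 to 0.32 in ND-646 (day 7), from -0.48 to 0.085 in TVB-3166 (day 7), from -0.39 to 0.17 in bleomycin (day 7), from -0.46 to 0.088 in doxorubicin (day 7), from -0.14 to 0.43 in alisertib (day 7), from -0.18 to 0.42 in palbociclib (day 7), from -0.12 to 0.025 in both lipogenesis inhibitors against the others. DNAJB1 ran from -0.040 to 0.34 in ND-646 (day 0), from -0.19 to 0.19 in TVB-3166 (day 0), from -0.22 to 0.17 in bleomycin (day 0), from -0.30 to 0.076 in alisertib (day 0), from -0.11 to 0.27 in palbociclib (day 0), from -0.29 to 0.081 in untreated day-7 (day 0), from -0.045 to 0.25 in TVB-3166 (day 7), from -0.054 to 0.24 in bleomycin (day 7), from -0.29 to 0.0067 in doxorubicin (day 7), from -0.15 to 0.14 in alisertib (day 7). HSPB1 ran from -0.54 to 0.17 in ND-646 (day 0), from -0.048 to 0.15 in palbociclib (day 7), from -0.46 to 0.28 in TVB-3166 against ND-646. BAG3 ran from -0.13 to 0.083 in ND-646 (day 0), from -0.18 to 0.033 in TVB-3166 (day 0), from -0.17 to 0.051 in bleomycin (day 0), from -0.043 to 0.11 in doxorubicin (day 7), from -0.0022 to 0.13 in palbociclib (day 7), from -0.14 to 0.025 in TVB-3166 against ND-646. HSPH1 ran from -0.27 to 0.035 in doxorubicin (day 0), from -0.0067 to 0.16 in bleomycin (day 7), from -0.022 to 0.12 in palbociclib (day 7). HSP90AA1 ran from -0.11 to 0.097 in doxorubicin (day 7), from -0.24 to 0.053 in TVB-3166 against ND-646. HSF1 ran from -0.068 to 0.013 in alisertib (day 7), from -0.075 to 0.048 in palbociclib (day 7). HSP90AB1 ran from -0.020 to 0.054 in palbociclib (day 7), from -0.13 to 0.11 in TVB-3166 against ND-646. HSPA8 ran from -0.20 to 8.1e-05 in TVB-3166 against ND-646.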
